A study of Mus musculus with 27 samples.

Results

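Krt5, Krt14 and Krt15 are the keratins by which the basal cells of skin and hair follicle are usually recognised, and the balance among them was followed here by culture and by cell. The genes were chosen by symbol: 3 of 51906 rows in the RNA-seq table of cultured hair follicle stem cells (HFSCs), and 3 of 32285 rows in each of 4 single-cell matrices. The series asked how retinoic acid acts on HFSCs held in culture, and on their course towards hair lineages. Of its 27 samples, 8 RNA-seq libraries and 4 single-cell libraries carry these genes and were used.

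Keratins are obligate heteropolymers: a type I chain pairs with a type II chain to build the intermediate filaments that give epithelial cells their strength. In basal keratinocytes Krt5 supplies the type II partner and Krt14 the main type I partner. Krt15 is a further type I keratin, known above all from the hair follicle bulge, where HFSCs reside, and from the outer root sheath (ORS), the layer that extends down from the bulge.

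The RNA-seq groups had 2 libraries each, from HFSC lines of 2 mice per genotype whose back skin was at postnatal day 55, in the resting phase of the hair cycle. Wild-type lines and lines labelled Rxra cKO were compared, the latter with a conditional deletion of the retinoid receptor gene Rxra. The study's methods list crosses in which a Sox9-CreER driver, active in HFSCs, recombines floxed Rxra and a Rosa26-YFP reporter. Each line was grown in medium with fetal bovine serum (FBS), or in serum-free B-27 medium with all-trans retinoic acid and a protein kinase C inhibitor (atRA+PKCi). Serum removal, atRA and the inhibitor therefore came together, and their separate parts cannot be told apart in these 4 groups. Lines were established on mitomycin-inactivated feeder cells before growth in 3 dimensions, so each library is a cultured line rather than freshly isolated tissue.

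The single-cell libraries came from 2 wild-type mice at postnatal day 32, when follicles are in late growth (anagen VI). From each mouse there was a matrix of back skin cells sorted without CD45, CD31, CD140a and CD117, which mark blood, vessel, fibroblast and melanocyte cells. A second matrix per mouse held CD34+ HFSCs of the same animals after 2 passages, pooled from 7 hashtagged culture conditions. These were FBS, B-27, atRA+PKCi, Rspo (R-spondin, which raises WNT signalling), BMP, Rspo+BMP, and Rspo+BMP+RARi, the last with an inhibitor of retinoic acid receptors. By the study's description, cultures given Rspo, BMP or RARi also held atRA and PKCi, which the hashtag names do not show.

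Krt14 and Krt15 are neighbours as well as relatives. In the mm10 (GRCm38) assembly Krt15 (ENSMUSG00000054146) lies at chr11:100131758-100135928 and Krt14 (ENSMUSG00000045545) at chr11:100203162-100207548. Both are on the minus strand, 67233 bases apart, with the protein-coding genes Krt19 and Krt9 between them. Krt5 (ENSMUSG00000061527) is at chr15:101707070-101712898, also on the minus strand.

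The coding sequences of Krt14 and Krt15 were identical at 73.2% of 1351 aligned bases, against 64.3% for Krt5 with Krt14 and 64.2% for Krt5 with Krt15. The most alike 60-base stretch of the aligned Krt14 and Krt15 coding sequences is shown because reads of both genes must be told apart for a balance to mean anything. It spans coding bases 360 to 419 of Krt14 and 291 to 350 of Krt15, and capitals mark the 3 bases that differ.
Krt14: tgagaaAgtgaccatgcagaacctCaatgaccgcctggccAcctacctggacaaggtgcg
Krt15: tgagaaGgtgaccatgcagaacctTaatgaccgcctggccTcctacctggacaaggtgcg
The longest identical run of the whole alignment was 28 bases, and Krt14 and Krt15 transcripts shared no stretch of 31 bases, the word length at which the quantifier's default index works. Reads of the other relatives are less distinct. Krt14 shared 28.2% of its 1721 words of 31 bases with 8 other genes, 303 of them with Krt16. Krt5 shared 15.8% of 2167 words with 19 genes, most with Krt6a (205), and 99 with Gm44323, a small RNA gene inside Krt5 on the opposite strand. Krt15 shared 3.74% of 1737 words with 3 genes, most with Krt17 (36).

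Total counts of the 8 RNA-seq libraries ranged from 25150265 to 35879777. Levels are given as counts-per-million (CPM) on library sizes scaled between libraries. In wild-type lines Rxra itself was at 149 and 122 CPM with FBS and at 147 and 143 CPM with atRA+PKCi. It was at 97.2 and 95.7 CPM in the libraries labelled Rxra cKO in FBS, and at 148 and 145 CPM in those labelled Rxra cKO in atRA+PKCi. It was lower in the labelled Rxra cKO lines in FBS (log2 fold change -0.49, edgeR adjusted p = 0.00264) but did not differ in atRA+PKCi (0.01, adjusted p = 0.927). Counts over a whole gene do not check a deletion of some of its exons, and the genotype is therefore given as labelled. Cd34, the surface marker on which HFSCs are sorted, was near zero, at group means of 0.446 to 2.35 CPM, while Sox9, a transcription factor of HFSCs and ORS, was at 72.5 to 165 CPM. Feeder and fibroblast genes did not exceed group means of 5.2 CPM.

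In wild-type HFSCs the change of medium took Krt15 from a few CPM to the scale of Krt14, which itself fell, while Krt5 changed little. Krt15 stood at 3.65 and 4.75 CPM in FBS, from 100 and 123 estimated counts. It stood at 4576 and 4430 CPM in atRA+PKCi, from 142677 and 139843 counts. The groups were far apart, and Krt15 was 1073-fold higher in atRA+PKCi (log2 fold change 10.07 ± 0.17 SE, edgeR quasi-likelihood test, adjusted p = 6.16e-09).

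Krt14 was at 20524 and 22349.9 CPM in wild-type FBS and at 5718 and 5972 CPM in atRA+PKCi. It was thus 3.67-fold lower in atRA+PKCi (log2 fold change -1.87 ± 0.0997, adjusted p = 8.65e-07). Krt5, the shared type II partner, was at 12333 and 11951.5 CPM in FBS and at 9262 and 9149 CPM in atRA+PKCi. The log2 fold change of Krt5 was -0.40 ± 0.0769 (adjusted p = 0.00223), the least of the 3, with no overlap between the groups. All 3 members were called in this comparison, in which 53.9% of the 15965 genes tested were. P-values here rest on a spread estimated over all 8 libraries and shared in part across genes. They do not measure only the spread between the 2 lines per compared group, and the main test did not pair the media by mouse. In bulk samples, fewer expressing cells cannot be told apart from less RNA per cell.

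In the lines labelled Rxra cKO the same change of medium raised Krt15 far less, and Krt14 did not change detectably. Krt15 was at 6.51 and 8.23 CPM in FBS and at 251 and 245 CPM in atRA+PKCi. The rise was 33.6-fold (log2 fold change 5.07 ± 0.137, adjusted p = 8.72e-08). Krt14 was at 11635 and 13390.1 CPM in FBS and at 11727 and 11666 CPM in atRA+PKCi, so that its atRA+PKCi values lay between those of FBS. Its log2 fold change was -0.10 ± 0.0965 (adjusted p = 0.454). Krt5 went the other way from wild-type, from 8958 and 9150.5 CPM in FBS to 12311 and 12315 CPM in atRA+PKCi (0.44 ± 0.0769, adjusted p = 0.00183). Thus 2 of the 3 members were called, where 43% of all genes tested were.

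**Figure D1:**
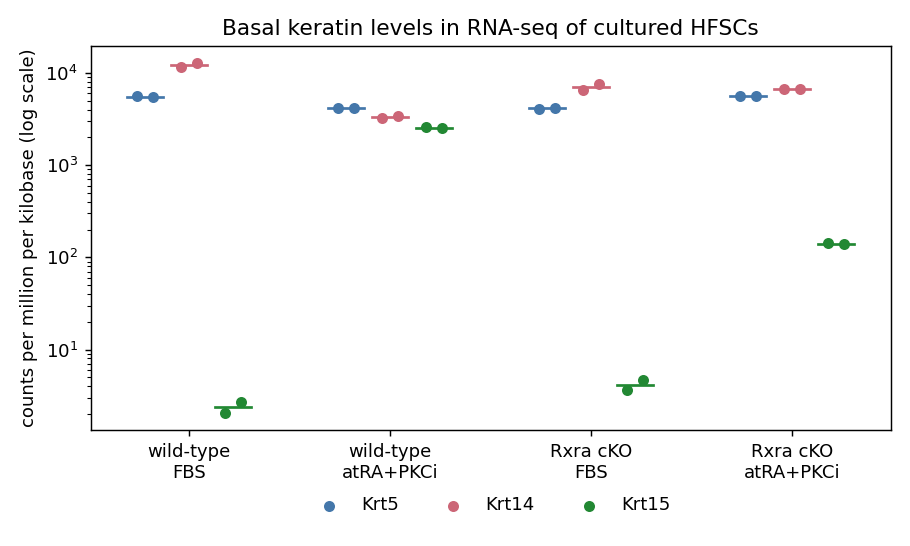
Level of Krt5, Krt14 and Krt15 in each RNA-seq library of cultured HFSCs, in CPM per kilobase of exon on a log axis; points are libraries and bars the mean of the 2 libraries of a group. Krt15 is at 2.07 to 4.66 in the 4 FBS libraries, at 139 and 142 in those labelled Rxra cKO in atRA+PKCi, and at 2507 and 2590 in wild-type atRA+PKCi.

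Tested directly, the effect of medium differed between genotypes for each of the 3 genes. The interaction of genotype and medium, as the log2 change in wild-type minus that in lines labelled Rxra cKO, was 5.00 ± 0.193 for Krt15 (adjusted p = 2.01e-06). It was -1.78 ± 0.138 for Krt14 (adjusted p = 5.06e-05) and -0.84 ± 0.109 for Krt5 (adjusted p = 0.000791). Of all genes tested, 24.6% were called for the interaction.

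Within atRA+PKCi, Krt15 was 18.1-fold lower in the lines labelled Rxra cKO than in wild-type (log2 fold change -4.18 ± 0.123, adjusted p = 1.15e-07). Krt14 was higher there by 1.00 on the log2 scale (adjusted p = 6.19e-05) and Krt5 by 0.42 (adjusted p = 0.00234). All 3 were called, against 43.2% of genes tested. Within FBS, Krt14 was lower in the labelled Rxra cKO lines (log2 fold change -0.78, adjusted p = 0.000298), as was Krt5 (-0.42, adjusted p = 0.00234). Krt15 was higher by 0.82 (adjusted p = 0.00321), at levels of a few CPM in both genotypes. Again all 3 were called, 1 of them higher and 2 lower, against 42.8% of genes tested, of which 22.3% were higher and 20.5% lower. The 4 contrasts share libraries and are not independent of one another.

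Between genes, levels were compared per kilobase of exon. In wild-type FBS, Krt14 made up 67.5% and 70.0% of the 3 keratins and Krt5 32.5% and 30.0%, with Krt15 at 0.0120% and 0.0148%. In wild-type atRA+PKCi, Krt15 took 25.7% and 24.9%, Krt14 32.3% and 33.7%, and Krt5 41.9% and 41.4%. Taken against Krt14 alone, Krt15 was 44.3% and 42.5% of the type I pair in those libraries, up from 0.0177% and 0.0212% in FBS. In the lines labelled Rxra cKO, Krt15 rose from 0.0345% and 0.0395% of the 3 keratins in FBS to 1.15% and 1.122% in atRA+PKCi, and Krt14 remained the leading member at 53.7% and 53.6%.

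Expressed as log2 ratios, the balance of Krt15 to Krt14 moved by 11.95 with the medium in wild-type and by 5.18 in the lines labelled Rxra cKO. For Krt15 to Krt5 the shifts were 10.48 and 4.64, and for Krt14 to Krt5 -1.47 and -0.54. Each of these ratios separated the media without overlap within each genotype. An exact two-sided permutation test of medium within genotype gave p = 0.0556 for each ratio, which is the smallest value that its 36 arrangements allow.

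The ratio of the 2 type I members to Krt5 differed between groups; the other keratins of both types, which also moved, are not in it. The sum of Krt14 and Krt15 per kilobase was 2.08 and 2.34 times Krt5 in FBS cultures of wild-type and 1.39 and 1.42 times in their atRA+PKCi cultures. Per kilobase, mean Krt14 fell from 12194 to 3325 CPM while mean Krt15 rose from 2.38 to 2549 CPM. In the lines labelled Rxra cKO the ratio was 1.62 and 1.83 in FBS and 1.22 and 1.21 in atRA+PKCi. As a share of all counts, the 3 genes together held 3.00% and 3.03% in FBS and 2.12% and 2.03% in atRA+PKCi for wild-type lines. The corresponding values in lines labelled Rxra cKO were 2.08% and 2.17%, and 2.58% and 2.59%.

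**Figure D2:**
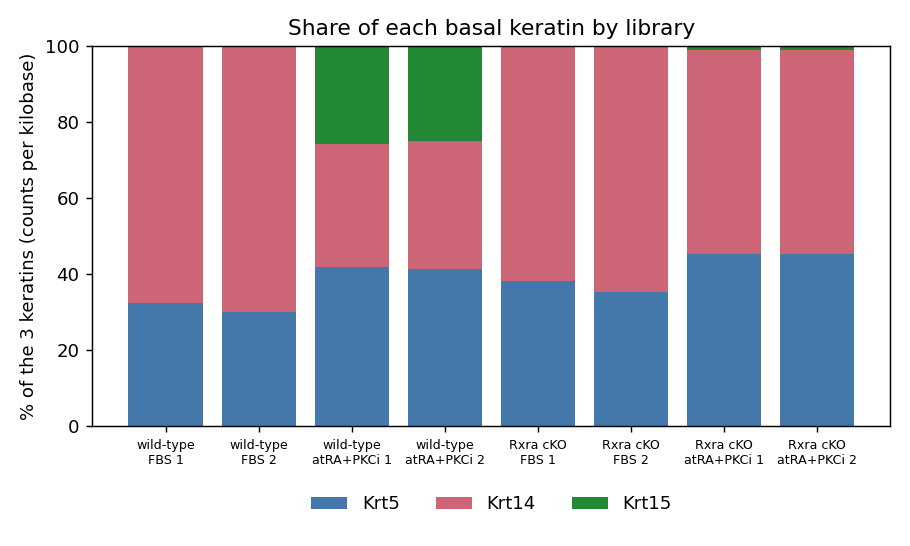
Share of Krt5, Krt14 and Krt15 in the sum of the 3 genes (percent, from CPM per kilobase), one stacked bar for each RNA-seq library. Krt15 is visible in the wild-type atRA+PKCi bars, at 25.7% and 24.9%, and as a thin band of 1.15% and 1.122% in the bars labelled Rxra cKO atRA+PKCi.

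Other keratins of stratified and simple epithelia gave the setting in which the 3 moved. Of 21 on the list, 19 were tested; with atRA+PKCi, 6 rose and 12 fell in wild-type, where 27.2% of all genes tested were higher and 26.6% lower, with a median log2 fold change of -2.79 against 0.03 over all genes. The lowest were Krt6b (log2 fold change -8.24, from 6306 to 20.9 CPM), a wound-induced keratin, then Krt78 (-7.51) and Krt23 (-7.28). The highest were Krt13 (6.84, from 0.752 to 86.5 CPM), Krt79 (5.10), a keratin of the upper follicle, and Krt19 (4.11), all called by edgeR at adjusted p of at most 5.07e-05. Krt15 therefore rose by more, on the log2 scale, than any of the 19.

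In the lines labelled Rxra cKO, 7 of the 19 were higher and 10 lower, against 20.8% and 22.2% of all genes tested, with a median of -0.62. Within atRA+PKCi, 14 were higher in those lines than in wild-type and 1 was lower, against 23% and 20.2% of all genes tested, with a median of 2.16. The suprabasal pair Krt1 and Krt10, which replaces Krt5 and Krt14 as keratinocytes leave the basal layer, fell in wild-type (log2 fold changes -4.91 and -4.47) and rose in the lines labelled Rxra cKO (3.70 and 1.64). Both changes were called for both genes, at means no higher than 140.2 CPM in any group.

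Keratins that share sequence with Krt14 or Krt5 moved with the medium too. In wild-type, Krt16 went from a mean of 6756 to 129 CPM and Krt6a from 13440.1 to 1948 CPM. In the lines labelled Rxra cKO, Krt16 went from 2390.1 to 579 CPM and Krt6a from 7838 to 4018 CPM, while Krt14 stayed level and Krt5 rose. Krt17, which shared words of 31 bases with both Krt14 and Krt15, differed mainly by genotype. Its means in wild-type were 86.6 CPM in FBS and 52.8 CPM in atRA+PKCi. In the lines labelled Rxra cKO they were 1857 and 1480 CPM. Krt15 in FBS was at only a few CPM in both genotypes. The part of misassigned reads in the Krt14, Krt5 and Krt15 values was not tested, for the medium or for the genotype.

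Genes that tie basal cells to the basement membrane mostly fell with the medium in both genotypes. Of 12 such genes, 10 fell and 0 rose with atRA+PKCi in wild-type, with a median log2 fold change of -0.93, where 26.6% of all genes tested fell and 27.2% rose. In lines labelled Rxra cKO, 11 were lower and 1, Dst, was higher, with a median of -0.92, against 22.2% and 20.8% of all genes. Lamb3 (-2.23) and Lama3 (-2.17), which encode laminin chains, were among the lowest in wild-type. Those that moved least were Cd151 (-0.03, adjusted p = 0.784), Dst (-0.21, adjusted p = 0.0824) and Col17a1 (-0.51, adjusted p = 0.0113), the last a hemidesmosomal collagen.

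Genes of the bulge and ORS went both ways. Among 13 tested of 15, 6 rose and 4 fell with atRA+PKCi in wild-type, with a median of -0.24, against 27.2% and 26.6% of all genes tested. In lines labelled Rxra cKO, 5 were higher and 2 lower, against 20.8% and 22.2%. Barx2 (1.41), Tcf7l2 (0.95) and Sox9 (0.82), which encode transcription factors, rose most in wild-type. Fgf18 (-3.10), Postn (-2.33) and Nfatc1 (-2.24) fell most, all at group means under 12 CPM in every group.

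Candidate regulators of keratin genes also went both ways. Of 15 retinoid receptors and epidermal transcription factors, 4 rose and 7 fell with atRA+PKCi in wild-type, where 27.2% and 26.6% of all genes did, and 4 rose and 4 fell in lines labelled Rxra cKO, against 20.8% and 22.2%. Grhl1 (-2.95) and Grhl3 (-2.02), which encode grainyhead-like factors, were lower in wild-type. Rarb (2.54, from 0.0376 to 0.238 CPM), Rara (0.56) and Rxrb (0.48), receptors of the retinoid pathway, were the highest. Tfap2b, with a log2 fold change of -2.46, was at or near zero in wild-type and not called (adjusted p = 0.289). In the lines labelled Rxra cKO Tfap2b was at means of 10.3 CPM in FBS and 17.7 CPM in atRA+PKCi, and the difference between genotypes was called in both media (edgeR adjusted p = 6.28e-06 and 1.82e-06). For the interaction, 0 were higher and 7 lower, against 11.3% and 13.3% of all genes tested.

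Over the 8 libraries, which fall into 4 groups of like values, the profile of log2 CPM most like that of Krt15 belonged to Stoml1 (r = 0.997), Tfdp2 (0.996) and 4931406P16Rik (0.995). Rab5c (0.998), Cryab (0.997) and Rab8a (0.99) were most like Krt14. Trim29 (0.98), Tbc1d14 (0.97) and Fbln1 (0.97) were most like Krt5. These were the highest of 9012 genes compared, and group differences alone can set such values. Among the 3 keratins themselves r was -0.90 for Krt15 with Krt14, 0.62 for Krt14 with Krt5, and -0.26 for Krt15 with Krt5.

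In the skin itself, Krt15 and Krt14 were found mainly in the same few clusters, and many cells held both. After filtering and doublet removal 13625 and 13608 cells of mouse 1 and mouse 2 remained, in 30 clusters that were formed without the 3 genes. Cells with fibroblast, immune and endothelial markers were among them in spite of the sort. Values are CPM from UMI counts of the summed cells, which count transcript ends and so need no length correction. No test was made between clusters, and 2 mice are given side by side. In all, 4 clusters with 11.5% and 13.3% of the cells held 79.5% and 81.4% of all Krt15 UMIs, 74.7% and 78.6% of Krt14 UMIs, and 50.3% and 58.1% of Krt5 UMIs.

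Cluster 24, which had Lgr5, Fgf5 and Vdr among its leading genes and took no name by its markers, was the most weighted to Krt15. Its highest marker score was for ORS, at 0.93 with 6 of 8 markers detected, just short of the score needed for a name. Basal interfollicular epidermis followed at 0.81. Its 364 and 439 cells held Krt15 at 3292 and 2248 CPM, Krt5 at 1104 and 847 CPM, and Krt14 at only 186 and 237 CPM. Krt15 made up 71.8% (95% exact interval 71.1 to 72.6) and 67.5% (66.7 to 68.2) of the 3 keratins, and was 17.7 and 9.50 times Krt14. These intervals cover counting error only.

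Cluster 14, also unnamed and led by Krt14, Barx2, Pthlh and Sox9, lay at the other end. Its highest marker scores were for companion layer, at 2.29, and ORS, at 1.65. It stayed unnamed because 2 of 3 companion layer markers were detected and none was among its leading genes. In its 315 and 252 cells Krt14 was at 6127 and 4686 CPM, the highest level of any cluster in both mice, as was Krt5 at 4258 and 3142 CPM. Krt15 was at 2717 and 1354 CPM there, or 20.7% and 14.7% of the 3. The spread of Krt15 between the mice was large here, while its order below the other 3 clusters in share held in both.

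The remaining pair lay between. In cluster 9, ORS-like by its markers, with 579 and 822 cells, Krt15 was at 2274 and 1689 CPM, Krt14 at 1351 and 1109 CPM and Krt5 at 1652 and 1291 CPM. Krt15 was 43.1% and 41.3% of the 3. In cluster 16, upper follicle-like though its marker score for suprabasal epidermis was nearly as high, with 304 and 298 cells, Krt15 was at 3769 and 3349 CPM, its highest level of any cluster. Krt14 was at 3505 and 4085 CPM and Krt5 at 2044 and 2492 CPM, so that Krt15 was 40.4% and 33.7% of the 3. Among the 4 clusters, ordered by level, Krt5 ran from cluster 14 to 16, 9 and 24, and Krt14 from 14 to 16, 9 and 24, in both mice and with no overlap between neighbours. Krt15 ran from cluster 16 to 24 in both, but clusters 14 and 9 changed places between the mice, and the values of clusters 24, 14 and 9 overlapped.

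**Figure D3:**
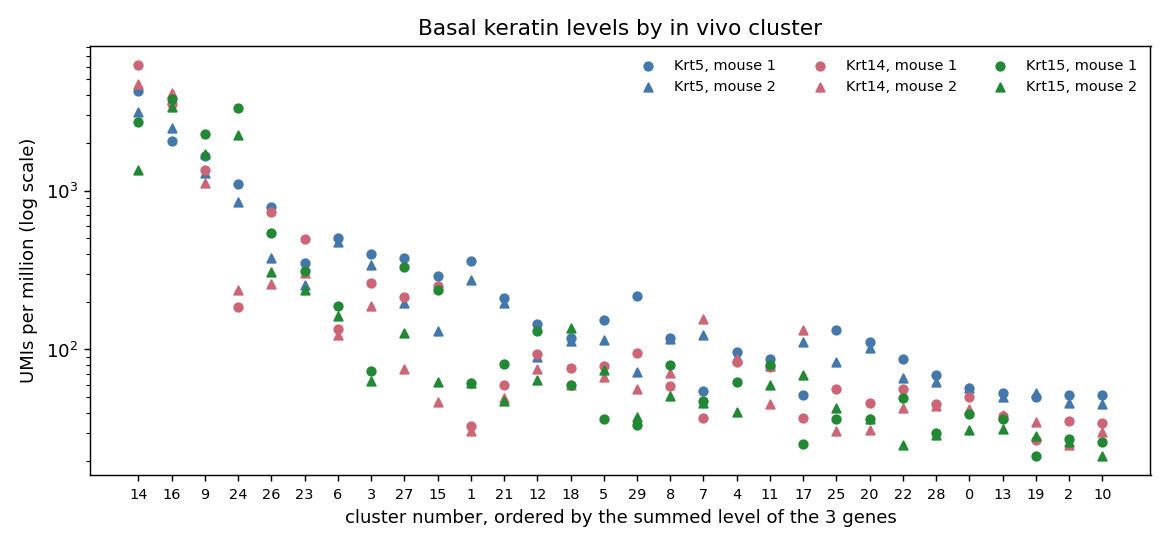
Level of Krt5, Krt14 and Krt15 in 30 in vivo clusters, in CPM of the summed cells on a log axis, for mouse 1 (circles) and mouse 2 (triangles), with clusters ordered by the summed level. Clusters 14, 16, 9 and 24 lead, and in cluster 24 Krt14, at 186 and 237, lies below Krt15 at 3292 and 2248.

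Outside these 4 clusters the keratins dropped, and Krt5 generally exceeded both type I genes. In cluster 6, of cycling cells led by Stmn1, Krt5 was at 502 and 478 CPM, Krt15 at 187 and 164 CPM and Krt14 at 135 and 123 CPM. In the inner root sheath-like cluster 1, Krt5 was at 361 and 274 CPM against 33 and 31 for Krt14 and 62 and 62 for Krt15. In the unnamed cluster 26, whose cells were shallow, Krt15 was at 542 and 308 CPM and Krt14 at 728 and 260 CPM. Cluster 23 took the name mural-like, at a marker score of 1.76, with Acta2, Tagln and Myh11 among its leading genes. Only 3 of 6 mural markers were detected, however, and Il17b, Lcn2, Mia and Lama1 led it too. Its second score was for basal interfollicular epidermis, at 0.69, and whether its cells are mural or epithelial was not tested. In cluster 23 Krt15 was at 313 and 238 CPM, and Krt14, at 493 and 304 CPM, exceeded Krt5 at 352 and 255 CPM. The other mural-like cluster, 12, had Krt14 at 93.3 and 75.1 CPM, below Krt5 at 145 and 89.3 CPM.

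Background was read from fibroblast-like clusters, in which these genes are not expected. In 3 such clusters Krt5 was at 45.3 to 53.0 CPM, Krt14 at 24.98 to 38.9 CPM and Krt15 at 21.4 to 36.7 CPM. After each cell was thinned to 3000 UMIs, 10.9% to 15.7% of these cells had a Krt5 UMI, 8.05% to 10.9% a Krt14 UMI and 1.56% to 7.53% a Krt15 UMI, with median depths before thinning of 8196 to 15798 UMIs. Many of the other clusters lay near these levels, and values there are at or close to free RNA.

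At the same depth of 3000 UMIs, Krt15 was found in 94.6% and 81.0% of cells of cluster 24 but Krt14 in 31.8% and 36.8%. Cells with Krt15 and no Krt14 made up 63.4% and 47.7% of that cluster. In cluster 14 the relation was turned round, with Krt14 in 91.0% and 88.3% and Krt15 in 46.4% and 41.3% of cells, and 50.2% and 52.6% of cells with Krt14 and no Krt15. Co-detection was commonest in the upper follicle-like cluster 16, where 72.7% and 70.3% of cells had both, and in the ORS-like cluster 9, with 67.8% and 55.4%. Krt5 accompanied them in most cells, from 67.5% and 71.3% in cluster 16 to 97.9% and 91.1% in cluster 14. Median depths of the 4 clusters before thinning were 6134 to 10585 UMIs.

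Cell by cell, the share of Krt15 was calculated where a cell had at least 20 UMIs of the 3 genes together, which left 1590 and 1575 cells. The median share over all of these was 40.0% and 36.4%. In cluster 24 the cells formed a single hump, with medians of 73.0% and 68.4% and with 98.2% and 91.7% of cells over 50%. Cells of cluster 14 were piled at zero, with medians of 1.30% and 2.46% and 61.6% and 60.6% of cells under 10%, yet 17.1% and 12.8% of them were over 50%.

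The ORS-like cluster 9 spanned the whole range. Its medians of 38.9% and 36.1% described few of its cells: 19.9% and 19.8% were under 10%, and 42.3% and 39.6% over 50%. In cluster 16 the cells centred on 41.1% and 32.2%, with 62.3% and 64.3% of them between 10% and 50%. The summed shares of clusters 9 and 16 were thus near one another in mouse 1 while the spread among their cells was not alike.

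**Figure D4:**
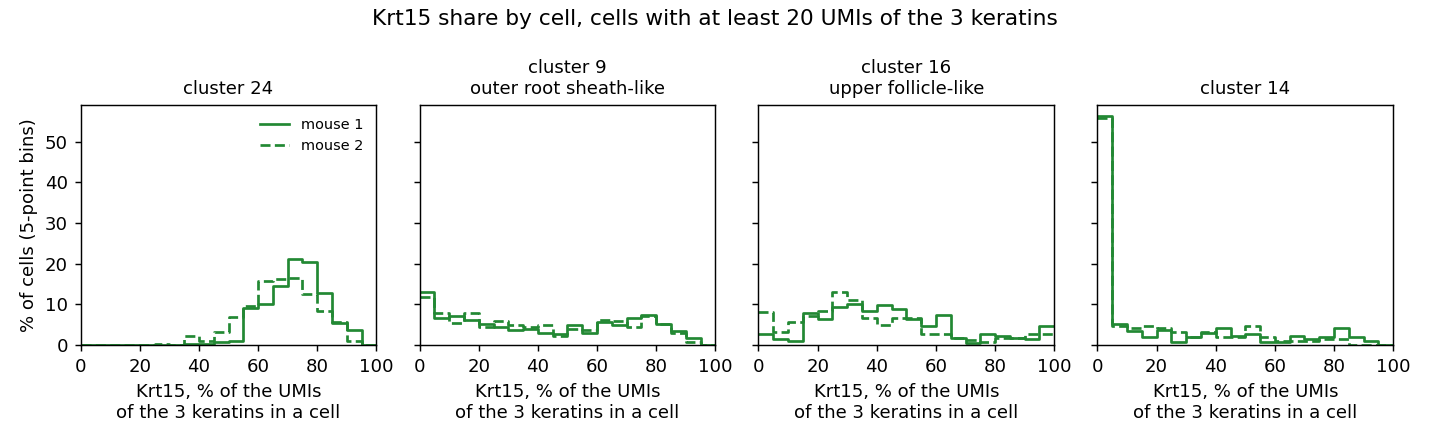
Distribution of Krt15 as a percent of the UMIs of the 3 keratins in single cells with at least 20 such UMIs, in 5-point bins, as a percent of the cells of a cluster, for mouse 1 (solid) and mouse 2 (dashed). Cluster 24 peaks near its medians of 73.0% and 68.4%, cluster 14 at zero, and the ORS-like cluster 9 extends across the axis.

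Inside cluster 14, cells of high and low Krt15 share differed in the genes around them. When all in vivo cells were clustered at the alternative resolution of 1.0, an unnamed cluster of 437 cells was led by Krt14, Pthlh and Krt17. An ORS-like cluster of 138 cells was led by Krt15 and Col17a1. Cells were not traced between resolutions. Whether these clusters hold the cells of cluster 14, or its low and high cells, was therefore not tested. The limits of 10% and 50% were chosen after the distributions were seen, and the values are descriptions with no test. There were 162 and 114 cells under 10% and 45 and 24 cells over 50%. Col17a1 was at 17.3 and 48.5 CPM in the first and 1378 and 1148 CPM in the second. Cd34 went from 30.4 and 39.4 CPM to 293 and 302 CPM, and Lgr5, a WNT target gene of follicle stem cells, from 52.7 and 70.5 CPM to 574 and 267 CPM. Krt24 had no UMI in cells of low share and was at 145 and 272 CPM in those of high share. Krt17, a keratin of the ORS and companion layer, went the other way, from 10137 and 6820 CPM to 1101 and 2127 CPM.

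Counted over the lists, among genes at 50 CPM or more, 10 of 12 anchoring genes and 10 of 14 bulge and ORS genes were higher in both mice in the cells of high Krt15 share of cluster 14, as were 35.5% of 3692 genes of that level in all. Sox9, Barx2 and Tcf7l1 were slightly lower in both. In the ORS-like cluster 9 the pattern was not the same: 6 of 10 anchoring genes and 8 of 12 bulge and ORS genes were lower in both mice in cells over 50%, as were 28.0% of 3417 genes in all. Col17a1 there went from 632 and 644 CPM to 169 and 166 CPM, and Sox9 from 305 and 284 CPM to 122 and 120 CPM. Cxcl14, a chemokine of the follicle, was higher, at 997 and 957 CPM under 10% and 1694 and 1816 CPM over 50%. A high share of Krt15 thus went with different neighbours in the pair of clusters, and the difference was not tested.

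Across the 30 clusters, on log2(CPM + 1) of the mean of both mice, the 3 keratins ran together: r was 0.93 for Krt15 with Krt5, 0.90 for Krt14 with Krt5 and 0.89 for Krt15 with Krt14. Krt15 was most like Krt5, Gm5860 (0.93), a long noncoding RNA gene, and Col17a1 (0.90). Krt14 was most like Col17a1 (0.91), Krt17 (0.91) and Krt5, and Krt5 was most like Krt17 (0.93), Krt15 and Lgals7 (0.90). These are descriptions over 14286 genes, in which clusters share libraries and most clusters are at background for all 3.

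HFSCs of the same mice after culture held the 3 keratins in yet another balance, in which Krt14 led in every condition. The matrices had 449 and 208 barcodes, of which 222 and 78 cells passed the filters and 0 barcodes were shared between mice. By hashtag, 77 and 33 barcodes were doublets, and no cell remained for FBS. For the other conditions the 2 mice had 5 and 10 cells in B-27, 5 and 6 in Rspo, 113 and 13 in BMP, 92 and 27 in Rspo+BMP, and 5 and 21 in Rspo+BMP+RARi. Only 2 and 1 cells remained for atRA+PKCi, and that condition was not tested.

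Krt15 was low in B-27, at 291 and 323 CPM of the summed cells, and was at 2093 and 1687 CPM in BMP. In Rspo+BMP it was at 1873 and 597 CPM, and in Rspo+BMP+RARi at 281 and 805 CPM. The mice were far apart in the last pair of conditions and in Rspo, where Krt15 was at 496 and 3076 CPM; the 6 cells of mouse 2 in Rspo had a median of 2359 UMIs, against 15300 to 32523 in the other tested conditions and mice. In the 3 cells of atRA+PKCi it was at 201 and 1088 CPM.

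BMP against B-27 is thus a contrast of several additions, and the part of BMP in it cannot be told apart from that of atRA and PKCi. Against B-27, Krt15 in BMP was higher by 2.73 on the log2 scale (95% interval 0.89 to 4.57), which fell just short of the threshold (edgeR adjusted p = 0.0535, where 10.4% of 6265 genes were called). With the mouse as a replicate block the difference was 2.81 and passed (adjusted p = 0.0398). Without either mouse of B-27 or of BMP it ranged from 2.51 to 3.01 with adjusted p from 0.119 to 0.373. BMP exceeded B-27 in both mice without overlap.

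Krt14 was at 5033 and 10907 CPM in B-27 and at 12610 and 11190 CPM in BMP, and the difference of 0.65 had an interval of -1.02 to 2.33 (adjusted p = 0.622). Krt5 was at 1339 and 2508 CPM in B-27 and at 3487 and 3892 CPM in BMP, a difference of 1.01 with an interval of -0.52 to 2.54 (adjusted p = 0.406). These intervals are too wide to show that the levels were alike.

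Adding Rspo to BMP, or RARi to both, in cultures described as holding atRA and PKCi throughout, gave no call for the 3 genes. Krt15 differed by -0.62 (interval -2.32 to 1.09) on adding Rspo and by -1.32 (interval -3.06 to 0.41, adjusted p = 0.959) on adding RARi. Neither comparison called any gene by edgeR or by DESeq2 (0% of 6265), and 44 and 233 genes were at an unadjusted p under 0.05. Without mouse 2 of Rspo+BMP+RARi, the second comparison called 729 genes. For Krt14 the differences were -0.17 (interval -1.83 to 1.495) and -0.29 (interval -1.96 to 1.38), and for Krt5 -0.28 (interval -1.79 to 1.23) and -0.20 (interval -1.72 to 1.31).

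As a share of the 3 keratins in summed cells, Krt15 was 4.37% and 2.35% in B-27, 11.5% and 10.1% in BMP, 10.7% and 4.65% in Rspo+BMP, and 4.36% and 4.07% in Rspo+BMP+RARi. It was 3.17% and 30.6% in Rspo and 3.11% and 4.40% in atRA+PKCi. By cell the median share in BMP was 8.51% and 11.8%, and single cells reached 72.2%. The medians were 6.25% and 7.26% in B-27, 7.84% and 6.62% in Rspo+BMP, and 5.41% and 5.93% in Rspo+BMP+RARi. For comparison, the share of Krt15 was 40.0% and 36.4% by cell in the skin of the same mice, where cells were sorted and filtered in another way, and 25.7% and 24.9% per kilobase in wild-type atRA+PKCi RNA-seq, a different scale.

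**Figure D5:**
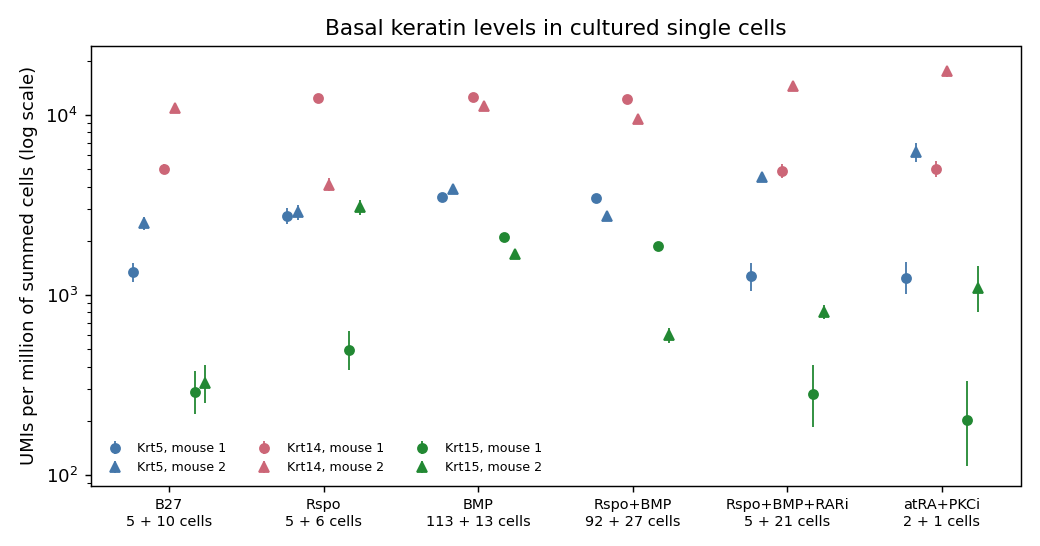
Level of Krt5, Krt14 and Krt15 in cultured single cells by hashtagged condition, in CPM of the summed cells on a log axis, for mouse 1 (circles) and mouse 2 (triangles); error bars are 95% exact Poisson intervals of counting error, and cell numbers of mouse 1 and mouse 2 stand under each condition. Krt15 in BMP, at 2093 and 1687, lies above B-27 at 291 and 323, and Krt14 is the highest of the 3 in every condition and mouse.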

How the data were processed

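Members and gene lists were chosen with earlier results of these data known. For RNA-seq the authors deposited estimated counts per gene (Salmon 1.4.0 with an index of mm10 transcripts, summarised to genes) and normalized values, the latter a signal scaled by size factors that was used only as an alternative. For single cells they deposited UMI counts from Cell Ranger (7.0.1 in the processing notes, 7.0.0 in the file headers), filtered for empty droplets. No pooled values were used, and 0 columns were left without a sample. Samples of other assays were not analysed here.

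Estimated counts were rounded, filtered (filterByExpr, 15965 genes), TMM-scaled and tested with edgeR 4.0.16 (quasi-likelihood, R 4.3.3, 1 mean per group over all 8 libraries, Benjamini-Hochberg, threshold 0.05). CPM was divided by exonic length from GENCODE M21 (GRCm38) to compare genes. Coding sequences were aligned with biopython 1.88. Cells in vivo were kept with at least 500 genes, 1000 UMIs and at most 10% mitochondrial UMIs; Scrublet doublets (5.76% and 2.21%) were removed, and cells clustered with scanpy 1.11.5 (30 components, resolution 0.6). The 2 in vivo mice shared 62 barcodes by sequence. Clusters took a name only from marker lists that hold none of the 3 genes. Hashtags were called in Seurat 5.3.0 (HTODemux quantile 0.99), and UMI counts were summed per mouse and condition with at least 5 cells in both. Shares have exact binomial intervals and levels exact Poisson intervals at 95%.

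Beside the 3 keratins and Rxra, genes were named as the 3 most like each keratin and the 3 highest and 3 lowest of each list, of which 1 is not reported here; Krt1, Krt10, Krt16, Krt17, Krt6a, Cd34, Sox9 and the genes of the cells split by Krt15 share were chosen after their values were seen. Alternatives were DESeq2 1.42.0, limma 3.58.1 on the log2 of the deposited normalized values with a pseudocount of 1 or 0.5, no count filter, stricter calls, left-out samples, other cell filters and a replicate block. Replicate numbers name the same mouse in both media, so the pairing comes from the labels; deviations of same-numbered libraries correlated at 0.06 and -0.02, and those of the cultured conditions at -0.26 to 0.23. The test code was checked on simulated data.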

Additional observations from a re-analysis of the deposited data

Results flagged for a closer look

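The response of all 3 keratins to the medium differed between wild-type lines and lines labelled Rxra cKO by a test of the difference itself (edgeR, interaction of genotype and medium). The difference in log2 fold change, wild-type minus labelled Rxra cKO, was 5.00 for Krt15, -1.78 for Krt14 and -0.84 for Krt5. For Krt5 the response also changed sign, being -0.40 in wild-type and 0.44 in the labelled Rxra cKO lines. Groups of 2 were too small to look for single samples that stand apart.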

How the results depend on the processing

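In RNA-seq, the called fold changes of the 3 keratins kept their direction and their side of the threshold under DESeq2, limma, no count filter and each left-out library, and under the replicate block for the medium effects and the interaction, the contrasts it was run for. Krt14 with the medium in lines labelled Rxra cKO was never called and ranged from -0.17 to 0.00 without single libraries. Requiring an adjusted p under 0.01 and a log2 fold change over 1 ended the call of Krt5 in every contrast (-0.40 and 0.44 with medium in wild-type and labelled Rxra cKO, -0.42 and 0.42 with genotype in FBS and atRA+PKCi, -0.84 for the interaction) and of Krt14 (-0.78) and Krt15 (0.82) with genotype in FBS. That rule left 2960 of 8599 genes called for medium in wild-type, 1858 of 6861 in labelled Rxra cKO, 1761 of 6840 for genotype in FBS, 2081 of 6895 in atRA+PKCi and 1134 of 3924 for the interaction. With a library left out, genes called ranged from 4543 to 7614 for medium in labelled Rxra cKO and from 2392 to 4335 for the interaction, the lowest without a library labelled Rxra cKO atRA+PKCi. On the deposited normalized values the shift of Krt15 to Krt14 in labelled Rxra cKO was 5.39 in place of 5.18, and that of Krt15 to Krt5 4.84 in place of 4.64; the cause was not tested.

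In cultured cells, Krt15 in BMP against B-27 passed the threshold at 2.74 with mitochondrial UMIs up to 20%, at 2.03 with hashtags called by 70% of counts, at 2.68 with DESeq2, at 2.90 without a count filter and at 2.81 with the replicate block, which changed no other call of the 3 genes. With sums left out it ranged from 2.51 to 3.01, and it passed when either mouse of Rspo+BMP+RARi or mouse 2 of Rspo was left out. Counts of genes called, an alternative chosen after seeing the data, ranged from 163 to 1246 for BMP against B-27, from 0 to 12 for Rspo+BMP against BMP and from 0 to 729 on adding RARi. In vivo, the Krt15 share of the ORS-like class varied over other filters and resolutions. It was 39.6% to 49.7% in mouse 1 and 39.5% to 44.1% in mouse 2. The class was cluster 9 alone in the main run but held other sets of cells in the alternatives. Without doublet removal it joined 1978 cells led by Barx2 and Krt17 with 854 cells led by Krt15 and Lgr5. Neither that setting nor the filter of at least 1000 genes and under 5% mitochondrial UMIs formed a separate cluster led by Krt14, as cluster 14 was. The upper follicle-like class was not named in every alternative. Shares of cells with a UMI moved with depth in 21 of 24 values. Few cells per cultured condition limit what could be detected there.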
